A study of Mus musculus with 6 samples.

Results

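Retinoid uptake, storage and oxidation was followed in jejunal intestinal epithelial cells (IEC) through 9 of the 19616 genes of the deposited count table. These were Bco1, Rbp2, Lrat, Adh1, Rdh7, Rdh16, Aldh1a1, Crabp1 and Rbp4, chosen by name with earlier results of these data known. All 9 were found in the table, and all 9 passed the filter on low counts. RNA came from 3 control mice (wildtype, named C1, C3 and C3-3) and 3 Hdac1/2-deleted mice (villin-Cre Hdac1-/-; Hdac2-/-, named H1, H5 and H9), all aged 3 months, with 1 library per mouse. Per the study's methods, floxed alleles of both deacetylase genes were deleted by a Cre driven by the villin promoter, which is active in the intestinal epithelium, on a mixed background. IEC were enriched from the jejunum with EDTA, so other cells could remain, and the labels name no treatment and no sex.

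Dietary vitamin A reaches the enterocyte as retinol or as carotenoids. Bco1 cleaves beta-carotene to retinal, Rbp2 holds retinol and retinal in the cytosol, and Lrat esterifies retinol for packing into chylomicrons. Alcohol dehydrogenases and short-chain dehydrogenases such as Adh1, Rdh7 and Rdh16 oxidize retinol to retinal, Aldh1a1 oxidizes retinal to retinoic acid, and Crabp1 binds retinoic acid in the cytosol. Rbp4 is the plasma carrier of retinol, best known as a product of the liver.

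The levels of 4 genes fell in Hdac1/2-deleted IEC, namely Rdh16, Rdh7, Lrat and Adh1, and those of 3 rose, namely Crabp1, Rbp4 and Bco1. A gene was called when edgeR's quasi-likelihood test gave a Benjamini-Hochberg adjusted p of at most 0.05 over the 15618 genes tested, together with a change of at least 2-fold. Over all genes tested, 12.7% were called decreased and 12.4% increased, or 25.2% in either direction. Rbp2 and Aldh1a1 had adjusted p-values under 0.05, as did 40.8% of all genes tested when no fold limit was set, but changed by less than 2-fold and were not called. The 3 control mice stood apart from the 3 Hdac1/2-deleted mice in each of the 9 genes, as they did in 53.2% of all genes tested. The median log2 fold change of the 9 genes was -0.94, against -0.01 over all genes tested. Because the 9 genes were chosen with earlier results of these data known, the contrast with all genes is a description and not a test. The samples are bulk RNA, in which fewer cells of a type and less RNA per cell cannot be told apart.

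**Figure D1:**
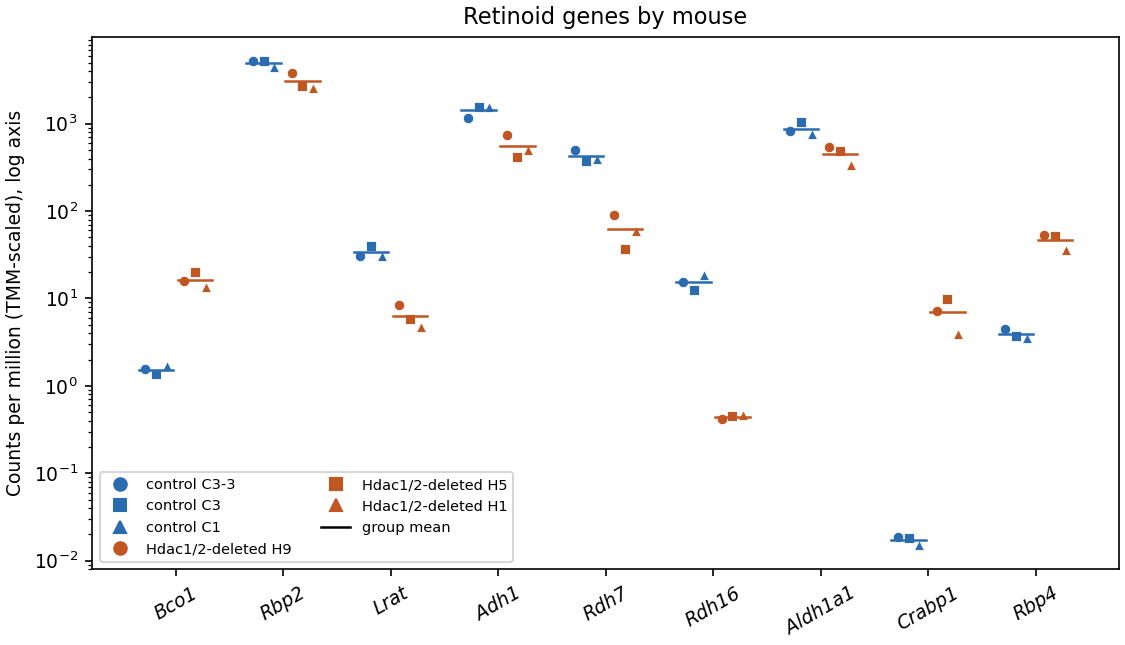
Level of each of the 9 genes in each mouse, in CPM on a log axis, with blue symbols for control and orange symbols for Hdac1/2-deleted mice and a line at each group mean. The groups do not overlap for any gene, and Crabp1 and Rdh16 show the widest gaps between groups.

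Library totals ran from 58017009 to 65902344 counts for the control mice and from 36111035 to 65230566 for the Hdac1/2-deleted mice, of which H5 was the shallowest. Levels are given below as CPM, that is counts per 1000000 counts of the library, scaled by the trimmed mean of M-values, and 3 counts correspond to 0.0405 to 0.0790 CPM. Of the targeted genes, Hdac1 had 39.1, 34.5 and 48.9 CPM in C1, C3 and C3-3 and 3.97, 2.53 and 4.81 CPM in H1, H5 and H9. Hdac2 ranged from 23.6 to 32.9 CPM in control and from 21.4 to 26.6 CPM in Hdac1/2-deleted mice, and the groups overlapped. Counts over a whole gene cannot show whether reads came from exons outside the deleted part, so the deletion of Hdac2 was not checked here. The epithelium markers of the labelled cell type were all present, with 12895 to 14753 CPM summed over 9 genes in control and 10331 to 12697 in Hdac1/2-deleted mice. C3 had 3987 counts over 16 genes of the Y chromosome, against 309 to 590 in the other 5 mice. Without C3, the same 7 of the 9 genes were called.

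Promoters of the 3 increased genes, of the most strongly decreased gene and of the most abundant gene are shown because these windows can be set beside the changes. They are RefSeq windows of 300 bases from GRCm38.p6, from 250 bases before to 50 after the start, read 5′ to 3′ on the gene's strand, with motif matches in capitals.
Bco1 chr8:117095615-117095914 (+): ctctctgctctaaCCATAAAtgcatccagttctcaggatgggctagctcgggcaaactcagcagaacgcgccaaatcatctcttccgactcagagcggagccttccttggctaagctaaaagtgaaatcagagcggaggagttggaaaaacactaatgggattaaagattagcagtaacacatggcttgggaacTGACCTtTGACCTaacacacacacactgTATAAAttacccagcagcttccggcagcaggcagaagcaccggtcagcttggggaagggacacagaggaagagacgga
Rbp4 chr19:38124762-38125061 (-): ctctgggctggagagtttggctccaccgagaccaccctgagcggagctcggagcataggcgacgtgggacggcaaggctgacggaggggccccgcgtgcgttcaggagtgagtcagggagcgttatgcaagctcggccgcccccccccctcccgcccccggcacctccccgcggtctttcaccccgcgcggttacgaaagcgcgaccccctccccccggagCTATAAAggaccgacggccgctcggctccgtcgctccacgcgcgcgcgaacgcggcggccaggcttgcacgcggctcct
Crabp1 chr9:54764498-54764797 (+): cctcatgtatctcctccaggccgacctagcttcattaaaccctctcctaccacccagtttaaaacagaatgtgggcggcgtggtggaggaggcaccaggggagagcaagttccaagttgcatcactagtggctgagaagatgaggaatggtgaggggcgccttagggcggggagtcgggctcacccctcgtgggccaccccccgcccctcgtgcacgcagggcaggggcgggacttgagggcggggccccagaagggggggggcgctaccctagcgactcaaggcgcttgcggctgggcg
Rdh16 chr10:127800903-127801202 (+): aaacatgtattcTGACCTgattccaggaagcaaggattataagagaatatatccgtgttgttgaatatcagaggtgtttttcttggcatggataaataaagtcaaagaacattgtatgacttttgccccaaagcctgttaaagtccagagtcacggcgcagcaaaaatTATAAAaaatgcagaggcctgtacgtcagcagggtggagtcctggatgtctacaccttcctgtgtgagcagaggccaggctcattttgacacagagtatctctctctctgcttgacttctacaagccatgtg
Rbp2 chr9:98490287-98490586 (+): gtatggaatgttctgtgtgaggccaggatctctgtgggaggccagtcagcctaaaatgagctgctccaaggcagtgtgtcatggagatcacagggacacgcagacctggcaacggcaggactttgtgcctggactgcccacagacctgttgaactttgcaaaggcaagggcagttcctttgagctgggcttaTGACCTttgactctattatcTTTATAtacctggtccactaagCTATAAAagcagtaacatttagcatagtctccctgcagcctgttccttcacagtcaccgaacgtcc
The motifs searched, on both strands, were the nuclear receptor half-site AGGTCA, which reads TGACCT on the other strand, the CDX motif TTTATNG, the homeobox motif TAATTA and the TATA box TATAAA. A CDX match can overlap a TATA box, as it did in Rbp4 and Rbp2. Retinoic acid receptors are only some of the nuclear receptors that bind pairs of the half-site, and CDX proteins are regulators of the intestinal epithelium. The half-site occurred in 16.3% of all 32851 windows, the CDX motif in 10.9%, the TATA box in 13.6% and the homeobox motif in 5.29%.

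The Bco1 window held the half-site at -56 and at -49 from the start, both on the minus strand and with 1 base between them. The increased Bco1 therefore shared the half-site with the decreased Rdh16, which held it at -238, with Rdh7, which held it at -105 in 1 of its 2 windows, and with Rbp2, which held it at -58. The windows of Lrat, Adh1, Aldh1a1, Crabp1 and Rbp4 held no such letters. A TATA box lay at -28 in Bco1 and at -28 in Rbp4, and TAATTA occurred in none of the 12 windows of the 9 genes. Base composition did not follow the direction of change. The windows of the increased Crabp1 (65.0% G or C) and Rbp4 (72.0% in the window shown) and of the decreased Lrat (60.7%) lay above the median of 52.7% over all windows, and that of the increased Bco1 lay below it. The second Rbp4 window, upstream of the one shown, had 40.7%. A match is a description of the letters, and no binding was measured here.

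Bco1 opens the route from carotenoids to retinoids, and its gene lies at chr8:117095854-117133720 of GRCm38 on the plus strand. Bco1 had 1.71, 1.35 and 1.54 CPM in C1, C3 and C3-3 and 13.4, 20.0 and 15.9 CPM in H1, H5 and H9. The lowest Hdac1/2-deleted mouse stood 7.83-fold above the highest control mouse. The mean rose 10.7-fold, from 1.53 ± 0.18 to 16.4 ± 3.34 CPM (SD, n = 3 mice per group). The log2 fold change was 3.42 (SE 0.24, the standard error of the fit, adjusted p = 1.89e-05, edgeR quasi-likelihood test). Scarb1, the scavenger receptor through which enterocytes take up carotenoids, had 3.87, 17.8 and 7.87 CPM in control and 65.9, 63.9 and 45.2 CPM in Hdac1/2-deleted mice, a log2 fold change of 2.57 (adjusted p = 0.0101, same test). Control mice were more scattered for Scarb1 than for Bco1, with C3 the highest of them, but remained below all Hdac1/2-deleted mice. Without C3 the change of Scarb1 was 3.32. Isx, the intestinal homeobox factor known to repress Scarb1 and Bco1, was not called (log2 fold change -0.34, adjusted p = 0.0999, same test). Its control mice had 124 to 164 CPM and its Hdac1/2-deleted mice 103 to 112 CPM. Bco2, which cleaves carotenoids at another bond, varied from 30.2 to 82.0 CPM over the 6 mice and was not called.

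Rbp2 was the most abundant of the 9 genes and lies at chr9:98486115-98509781 on the plus strand. Rbp2 had 4444, 5193 and 5232 CPM in C1, C3 and C3-3 and 2594, 2727 and 3858 CPM in H1, H5 and H9. H9 came nearest to the control mice, within 1.15-fold of the lowest of them. The log2 fold change was -0.70, with a 95% confidence interval from -1.18 to -0.22 (adjusted p = 0.0274, edgeR quasi-likelihood test). The adjusted p was 0.103 without H5, 0.0930 without C3-3, 0.0806 without H1 and 0.0578 without C3 (same test). Among the intracellular binding proteins Rbp2, Rbp7, Crabp1 and Crabp2, Rbp2 made up 99.6% to 99.8% of the summed level per kilobase of exon in control and 99.01% to 99.4% in Hdac1/2-deleted mice.

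Lrat, the acyltransferase that turns retinol into its storage and transport form, lies at chr3:82892579-82903973 on the minus strand. Lrat had 30.9, 40.0 and 30.6 CPM in C1, C3 and C3-3 and 4.72, 5.77 and 8.42 CPM in H1, H5 and H9. All Hdac1/2-deleted mice were low, the highest of them, H9, being 3.64-fold under the lowest control mouse. The mean fell 5.36-fold, with a log2 fold change of -2.42 (SE 0.24, adjusted p = 1.06e-04, edgeR quasi-likelihood test). The list of ester formation and hydrolysis held 12 tested genes other than Lrat. Of these, 6 were decreased, 0 increased, and the median change was -1.71 in log2. The decreased genes were Pnliprp2 (-4.00), a pancreatic lipase-related protein, and the carboxylesterases Ces1g (-6.73), Ces1d (-5.79), Ces1f (-4.70), Ces2a (-3.92) and Ces1e (-2.64), some of which hydrolyse retinyl esters besides other substrates. Ces1d scattered widely in control mice, from 15.2 CPM in C3-3 to 119 CPM in C1, and without C1 its change was -4.98.

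Adh1, a cytosolic alcohol dehydrogenase that oxidizes retinol as well as ethanol, lies at chr3:138260991-138290698 on the plus strand. Adh1 had 1567, 1540.4 and 1152 CPM in C1, C3 and C3-3 and 498, 418 and 735 CPM in H1, H5 and H9. The highest Hdac1/2-deleted mouse, H9, lay 1.57-fold under the lowest control mouse. The mean fell 2.58-fold, with a log2 fold change of -1.37 (SE 0.24, adjusted p = 0.00204, edgeR quasi-likelihood test). The other tested alcohol dehydrogenase genes within 250 kb were not called, with log2 fold changes of -0.97 for Adh6a, -0.85 for Adh4, -0.23 for Adh7 and 0.81 for Adh5. Adh6a was called decreased without C1 (-1.15), C3 (-1.10) or H9 (-1.16), and Adh4 without H1 (-1.04). An antisense gene, Gm16559, overlaps Adh1 but had at most 0.649 CPM in any mouse.

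Rdh7 and Rdh16 encode microsomal short-chain dehydrogenases that oxidize retinol and also hydroxysteroids. Rdh7, at chr10:127884028-127888817 on the minus strand, had 392, 376 and 504 CPM in C1, C3 and C3-3 and 59.4, 37.0 and 89.9 CPM in H1, H5 and H9. Its mean fell 6.83-fold, with a log2 fold change of -2.77 (SE 0.32, adjusted p = 3.18e-04, edgeR quasi-likelihood test). The Hdac1/2-deleted mice differed among themselves by 2.43-fold, more than the control mice, which differed by 1.34-fold.

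Rdh16, at chr10:127801152-127846565 on the plus strand, had 18.6, 12.6 and 15.2 CPM in C1, C3 and C3-3 and 0.459, 0.448 and 0.423 CPM in H1, H5 and H9. These levels came from 1231, 702 and 810 counts in control and from 34, 17 and 26 counts in Hdac1/2-deleted mice. The Hdac1/2-deleted mice lay close together, within 1.09-fold of one another, and 27.5-fold under the lowest control mouse. With only 17 to 34 counts each, this closeness is not a measure of how alike the mice were. The mean fell 34.96-fold, with a log2 fold change of -5.12 (SE 0.26, adjusted p = 4.05e-06, edgeR quasi-likelihood test). By adjusted p, Rdh16 ranked 38 among all genes tested.

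**Figure D2:**
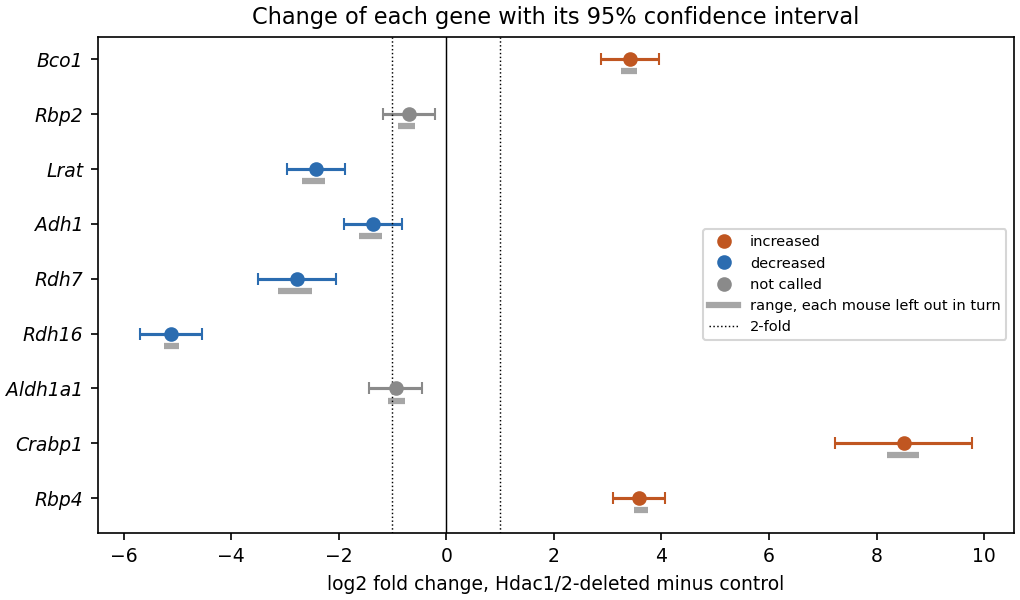
Log2 fold change of each of the 9 genes between Hdac1/2-deleted and control mice, with its 95% confidence interval as the thin bar and, as the thick grey bar, the range when each mouse was left out in turn. Dotted lines mark 2-fold. The intervals of Rbp2 and Aldh1a1 reach across the lower 2-fold line, as does that of Adh1, while those of Rdh16, Rdh7, Lrat, Bco1, Rbp4 and Crabp1 lie beyond 2-fold.

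Both Rdh genes sit in a cluster of short-chain dehydrogenase genes on chromosome 10, spanning 248 kb from Rdh1 to Hsd17b6. Of the 8 tested genes within it, 6 were decreased, 0 were increased, and the median change was -3.51 in log2. These values include Rdh16 and Rdh7, which were chosen with earlier results of these data known. The shares over all genes tested were 12.7% decreased and 12.4% increased. Besides Rdh16 and Rdh7, the decreased genes were BC089597 (-5.38), Hsd17b6 (-4.69), the pseudogene Rdh18-ps and Rdh9 (-2.90, or -3.57 without H9). Rdh18-ps had only 40 counts over the control and 2 over the Hdac1/2-deleted mice, both in H1, 19.8-fold fewer after scaling, with an exact 95% counting interval from 5.15 to 170. Rdh1 (-0.30, SE 0.39) and Sdr9c7 (-0.19, SE 0.53), which lie between or beside the decreased genes, were not called. Rdh1 was low, at 0.270 to 0.452 CPM over the 6 mice. Its 95% confidence interval, from -1.20 to 0.59, still includes a 2-fold fall. The cluster and Sdr9c7 were singled out after their values were seen. Of the 18 tested genes in the 250 kb on either side of the cluster, 0 were decreased and 4 increased, with a median of 0.25. Genes of the cluster resemble one another, so that 7.75% of the distinct 100-base windows of Rdh16 transcripts and 4.05% of those of Rdh7 also occurred in transcripts of other genes. The sources used here do not say to which gene such reads were assigned. Rdh18-ps also overlaps Rdh16 on the same strand.

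**Figure D3:**
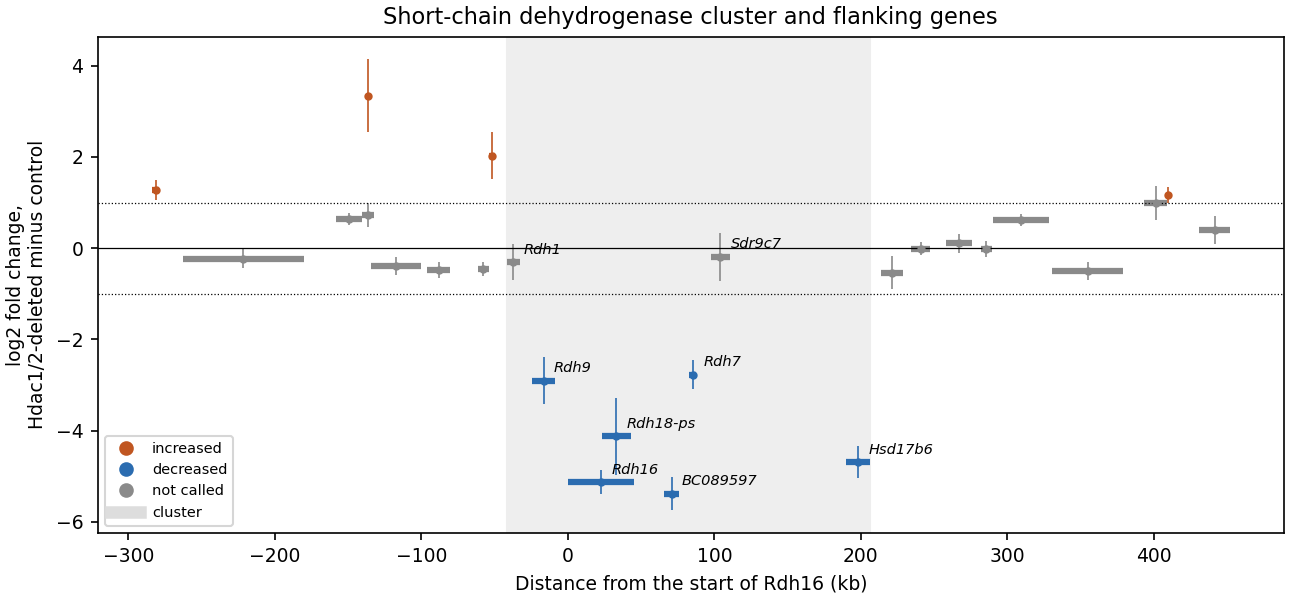
Log2 fold change of the tested genes in the chromosome 10 cluster (grey band) and in the 250 kb on either side, against distance in kb from the start of Rdh16. Horizontal bars span each gene and vertical bars are the standard error. The 6 decreased genes all lie inside the band, beside Rdh1 and Sdr9c7, which were not called and have standard errors of 0.39 and 0.53.

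The whole list of retinol and retinal interconversion other than Adh1, Rdh7 and Rdh16 comprised 22 tested genes. Among them 10 were decreased, 1 was increased, and the median log2 value was -1.21. Outside the cluster the decreased genes were Rdh5 (-3.52), known for the visual cycle, Akr1b7 (-3.54) and Akr1b10 (-2.35), which reduce retinal and other aldehydes, Retsat (-2.72), which saturates retinol, Dhrs4 (-1.65) and Rdh14 (-1.46), which act on retinal. Rdh12, a retinal reductase, was the increased gene (1.44), at 0.287 to 0.558 CPM in control and 0.878 to 1.53 CPM in Hdac1/2-deleted mice. Its call was lost without C1 (1.23), C3-3 (1.44) or H5 (1.19).

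Aldh1a1, the retinal dehydrogenase that makes retinoic acid, lies at chr19:20492715-20643465 on the plus strand. Aldh1a1 had 755, 1054 and 815 CPM in C1, C3 and C3-3 and 338, 482 and 547 CPM in H1, H5 and H9. The groups were separated by 1.38-fold. The log2 fold change was -0.94, with a 95% confidence interval from -1.44 to -0.45 (adjusted p = 0.0081, edgeR quasi-likelihood test), and it passed 2-fold without C1 (-1.03) or H9 (-1.09). Of the summed level per kilobase of Aldh1a1, Aldh1a2, Aldh1a3 and Aldh1a7, Aldh1a1 made up 95.3% to 96.5% in control and 93.6% to 98.2% in Hdac1/2-deleted mice, and these shares overlapped. Of the 4 other tested genes of retinal oxidation, 1 was decreased, Aldh8a1 (-2.61), and 0 were increased. Aldh1a7 was not called with all mice (-0.99) and was decreased without H9 (-2.09).

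Crabp1, at chr9:54764748-54773110 on the plus strand, had 1 count in each control mouse and 291, 379 and 444 counts in H1, H5 and H9. In CPM these were 0.0151 to 0.0188 in control and 3.93, 9.98 and 7.22 in Hdac1/2-deleted mice. Control levels were thus under the 3-count floor, while all Hdac1/2-deleted mice were far above it. Over the groups, 3 counts stood against 1114, a scaled ratio of 374 with an exact 95% counting interval from 128 to 1817. The adjusted p was 1.40e-05 (edgeR quasi-likelihood test). Even so, H1 and H5 differed by 2.54-fold.

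The list of other genes that bind or clear retinoic acid comprised 4 tested genes. Among them 2 were increased, 1 was decreased, and the median log2 value was 1.55. Crabp2, the other cellular retinoic acid-binding protein, rose from 4, 4 and 0 counts to 36, 74 and 80 counts (log2 fold change 4.70, adjusted p = 0.0020, edgeR quasi-likelihood test). Cyp26b1, which degrades retinoic acid, rose from 20, 10 and 4 counts to 187, 98 and 138 counts (3.68, adjusted p = 4.11e-04, same test). Cyp2s1, another P450 that can oxidize retinoic acid, fell (-1.33, adjusted p = 0.00313, same test). Cyp26a1 had 0 to 3 counts in control and 0 to 5 counts in Hdac1/2-deleted mice and was not tested.

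Rbp4, at chr19:38116629-38125281 on the minus strand, had 3.49, 3.69 and 4.52 CPM in C1, C3 and C3-3 and 35.6, 51.4 and 53.3 CPM in H1, H5 and H9. Each Hdac1/2-deleted mouse was at least 7.89-fold above every control mouse. The mean rose 11.99-fold, with a log2 fold change of 3.58 (SE 0.21, adjusted p = 8.20e-06, edgeR quasi-likelihood test). Ttr, which carries Rbp4 in plasma, rose from 1.84, 1.40 and 1.43 CPM to 12.8, 13.3 and 52.7 CPM (log2 fold change 4.07, adjusted p = 0.00279, same test), H9 standing far above H1 and H5. Without H9 the change of Ttr was 3.07. Lrp2, the endocytic receptor megalin, which takes up Rbp4 in the kidney, rose from 8, 1 and 0 counts to 889, 1458 and 1989 counts (9.03, adjusted p = 2.67e-04, same test). This fitted change rests on few control counts and was 11.24 without C1, which held most of them. Cd36, a lipid scavenger receptor linked to carotenoid uptake, fell from 190 to 281 CPM in control to 6.66 to 10.6 CPM in Hdac1/2-deleted mice (-4.88, adjusted p = 4.11e-06, same test). The list of uptake and transport comprised 9 tested genes other than the 9 followed here, 4 of them increased and 1 decreased. Stra6l, a membrane receptor for Rbp4, had 3.73 to 4.86 CPM in control and 4.13 to 4.64 CPM in Hdac1/2-deleted mice and was not called.

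Since Rbp4 and Ttr are abundant products of hepatocytes, hepatocyte markers were set beside them. The 7 markers in the table, which include Ttr, summed to 494 to 704 CPM in control and 540 to 849 CPM in Hdac1/2-deleted mice, mostly from Cps1, which the jejunum also expresses. Of the 7, 3 were increased, namely Ttr, Tat and F9, 3 were decreased, namely Alb, Hpd and Cyp2e1, and Cps1 was not called. Tat, which degrades tyrosine, rose from 6, 4 and 4 counts to 146, 491 and 71 counts, and F9, a clotting factor, from 1 count in each control mouse to 21, 11 and 18 counts. Alb, which encodes albumin, fell from 0.910 to 0.259 CPM on average, Hpd, of tyrosine breakdown, from 5.10 to 1.88 CPM, and Cyp2e1, a liver P450, from 0.831 CPM to 0 counts in every Hdac1/2-deleted mouse. The level of Rbp4 relative to these markers was not tested.

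The retinoic acid receptor list comprised 5 tested genes, 2 of them decreased and 0 increased. Rarb, itself a well-known retinoic acid target, had 36, 26 and 17 counts in C1, C3 and C3-3 and 1, 0 and 1 counts in H1, H5 and H9, 39.2-fold fewer after scaling, with an exact 95% counting interval from 10.5 to 329. Rarg fell by 1.13 on the log2 scale (adjusted p = 0.0468, edgeR quasi-likelihood test), and its call was lost without C1 (-1.17), C3 (-0.88), C3-3 (-1.29), H1 (-0.89) or H9 (-1.04), and with library totals in place of the scaling factors (-0.94). Rara (-0.22), Rxra (-0.16) and Rxrb (-0.66) were not called. Of 10 tested genes known as retinoic acid targets, 4 were increased, 1 was decreased and 5 were not called, and the median change was -0.33 in log2. The increased genes included Cyp26b1 and Crabp2, given above, and the developmental homeobox gene Hoxa5. Hoxa5 had 21, 17 and 6 counts in control and 126, 51 and 51 counts in Hdac1/2-deleted mice. The decreased target was Rarb, so the called targets did not share one direction.

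**Figure D4:**
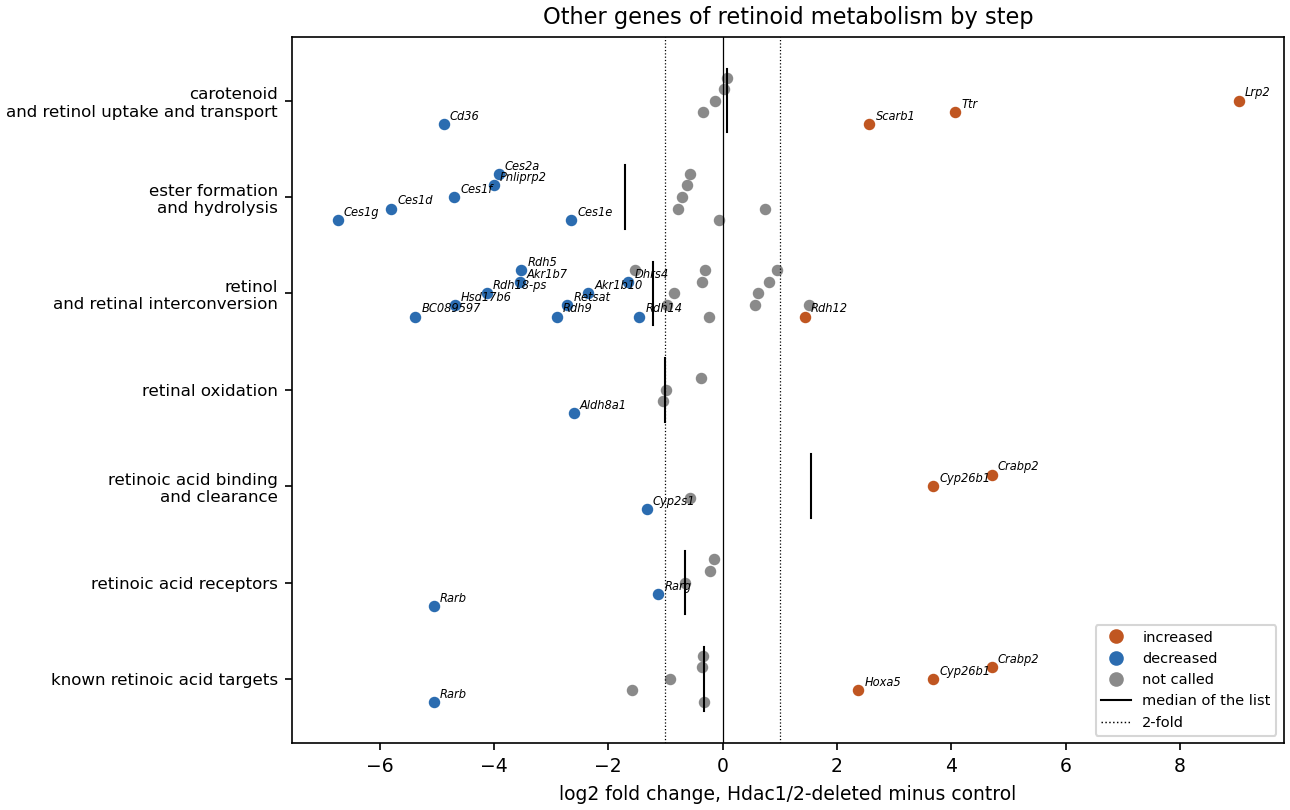
Log2 fold change of tested genes of 7 lists of retinoid metabolism, without the 9 genes followed here, with the called genes that are plotted named and the median of each whole list as a black line. Decreased genes are most frequent among the ester and interconversion lists, and the target list shares some genes with the other lists.

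Over the 7 lists together, 61 distinct genes other than the 9 were tested. Of these, 21 were decreased, or 34.4%, against 12.7% of all genes tested, and 9 were increased, or 14.8%, against 12.4%. The median log2 fold change was -0.66. Without C3, 63 of the genes were tested, of which 23 were decreased and 11 increased. The lists were chosen with earlier results of these data known, so these shares are a description and not a test. Of the 12 enterocyte markers given below, 5 were decreased and 1 was increased.

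Levels between the 9 genes are comparable only per kilobase of exon. On that scale the order of the mean levels in control IEC was Rbp2 (5152), Adh1 (636), Rdh7 (253), Aldh1a1 (177), Lrat (6.32), Rbp4 (2.90), Rdh16 (2.49), Bco1 (0.603) and Crabp1 (0.0216), in CPM per kilobase. In Hdac1/2-deleted IEC the order was Rbp2 (3180.3), Adh1 (246), Aldh1a1 (92.3), Rdh7 (37.0), Rbp4 (34.8), Crabp1 (8.78), Bco1 (6.45), Lrat (1.18) and Rdh16 (0.0713). Lrat and Rdh16 thus moved down the order, while Rbp4, Crabp1 and Bco1 moved up past Lrat. With the length of the longest coding transcript in place of all annotated exons, Aldh1a1 (371) stood above Rdh7 (253) and Rdh16 (4.83) above Rbp4 (3.36) in control IEC, and Rbp4 (40.3) stood above Rdh7 (37.0) in Hdac1/2-deleted IEC, so these neighbours in the order cannot be placed.

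Enterocyte markers also differed between the groups. Summed over 12 genes they made up 95452 to 108794 CPM in control and 39350 to 53116 CPM in Hdac1/2-deleted mice, a log2 ratio of -1.15. Of the 12, 5 were decreased, 1 was increased and 6 were not called, and their median log2 fold change was -0.66. Relative to the summed enterocyte markers, Rdh16 (-3.97), Rdh7 (-1.62) and Lrat (-1.27) were still lower by more than 2-fold, Adh1 was at -0.22, and Aldh1a1 (0.21) and Rbp2 (0.46) were above 0, all as log2 differences. Relative to the median of these markers, Adh1 was at -0.70, Aldh1a1 at -0.28 and Rbp2 at -0.03. Relative to the summed epithelium markers, which differed by -0.25, Adh1 was at -1.12, Aldh1a1 at -0.69 and Rbp2 at -0.45. Bco1, Rbp4 and Crabp1 stood higher than in the unscaled comparison under each of these. Summed Paneth cell markers were lower in Hdac1/2-deleted mice (151 to 232 CPM, against 3127 to 5056 in control). So were the sums of goblet cell (6449.9 to 13548, against 18129 to 20822) and smooth muscle markers (0.283 to 0.358, against 2.30 to 59.9). Only 2 of the 6 goblet cell genes were decreased and 4 were not called (median log2 fold change -0.95). The macrophage and dendritic cell sum was also lower (27.6 to 38.4, against 62.5 to 74.0), although 1 of its 5 genes was increased and 1 decreased (median log2 fold change 0.76). The proximal small intestine sum was lower too (4111 to 5474, against 8841 to 12982), again with 1 of 5 genes increased and 1 decreased (median -0.08). The proximal list shares Fabp1 and Lct with the enterocyte list. The enteroendocrine sum was higher (1062 to 1466, against 634 to 707), but its genes did not rise as a set. Of the 7, only 1 was increased, 2 fell and 4 were not called, and their median was -0.11 in log2. These sums, from Paneth cell to enteroendocrine, did not overlap between the groups. Those of the fibroblast, T cell, B cell, endothelium, hepatocyte and ileum lists overlapped. Fibroblast and stroma markers summed to 4.72 to 14.6 CPM in control and 12.6 to 21.7 CPM in Hdac1/2-deleted mice, with 1 of 5 tested genes increased and 1 decreased. T cell markers summed to 68.6 to 237 CPM in control and 43.7 to 89.1 CPM in Hdac1/2-deleted mice. Among these 7 T cell genes, 2 were decreased and 0 increased, with a median log2 fold change of -1.25. The part of any of these cell types in the changes of the 9 genes was not tested.

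**Figure D5:**
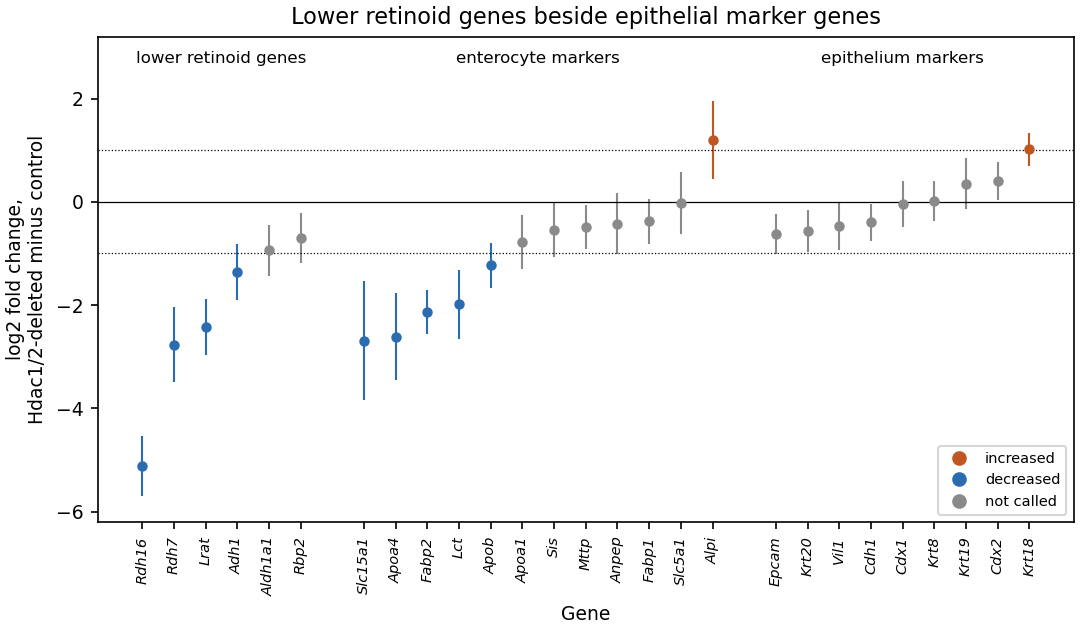
Log2 fold change, with its 95% confidence interval, of the 6 retinoid genes with lower levels, beside the 12 enterocyte and 9 epithelium markers. Rdh16 lies below every marker and Rdh7 just below the lowest, Slc15a1, while Lrat, Adh1, Aldh1a1 and Rbp2 lie within the range of the enterocyte markers, from Slc15a1 to Alpi.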

How the data were processed

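RNA-seq libraries of EDTA-enriched jejunal IEC from 3 control and 3 Hdac1/2-deleted mice were analysed from the deposited table of raw read counts per gene. Per the labels, poly(A) RNA was prepared with a directional kit and reads were aligned with STAR 2.4.0f1. The labels name the build mm9, whereas the study's methods name GRCm38. The counter, its annotation and its strand setting are not given in the sources used here. The table also holds a score per sample that the authors made by scaling and rounding the counts, and the authors' own comparison (fold changes, mean levels and p-values). Neither was used.

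Genes were filtered with filterByExpr, normalized with TMM and fitted with edgeR 4.0.16 (robust quasi-likelihood, prior count 0.125, R 4.3.3), all 6 mice and no covariates, with Benjamini-Hochberg adjustment over 15618 genes. The fit was tested on simulated counts. Alternatives used DESeq2 1.42.0, limma 3.58.1 voom, other scaling, filters, prior counts and limits, and leaving out each mouse. With 3 mice per group an exact permutation test cannot go below p = 0.1, so none was used. Counting intervals cover counting error only. Nothing says whether the mice were littermates.

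The 9 genes, the pathway lists and the marker lists were chosen with earlier results of these data known. All 9 genes, the called genes of the lists and the retinoic acid receptors were named, the others mainly counted. Isx, Bco2, Stra6l, Rdh1, Sdr9c7, Aldh1a7 and the uncalled Adh genes were named after their values were seen. A few genes are counted in the lists but not reported or plotted here. Positions and exon lengths came from GENCODE M21 (GRCm38), which held 19526 of the 19616 genes, matched by identifier, and promoters from RefSeq (GRCm38.p6). Protein sequences were not used here.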

Additional observations from a re-analysis of the deposited data

How the results depend on the processing

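Under 14 alternatives, 121 of 125 log2 fold changes of the 9 genes kept their direction and call, 0 were reversed and 0 lost their call. The other 4 became calls, namely Rbp2 and Aldh1a1 with no fold limit, and Aldh1a1 without C1 or without H9. Crabp1 had no value when at least 10 counts were required in every sample, and its fitted log2 fold change of 8.51 became 7.10 with a prior count of 2, since it depends on that prior. With library totals in place of TMM the median of all genes shifted from -0.01 to 0.18, the interconversion list had 3 increased genes in place of 1, with Rdh11 (1.14) and Dhrs9 (1.65) added, and the receptor list 1 decreased gene in place of 2. With no fold limit, 3198 genes were increased and 3168 decreased over the whole table, against 1944 and 1990 with it. When each mouse was left out in turn, 3 of the 9 genes were increased in every fit and 4 to 5 decreased, the lists together had 9 to 11 increased and 20 to 24 decreased genes, and all genes tested 1841 to 2109 increased and 1790 to 2012 decreased. Ratios to the marker lists were added after the data were seen. No paired analysis was possible because only C1 and H1 share a number across the groups, and nothing ties it to a litter or batch. At 3 counts per library, levels under 0.0790 CPM could not be told from 0 in the shallowest library, which limits what can be said of Crabp1 in control mice and of Cyp26a1 in either group.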

Other observations

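For each called gene, the 2 genes of closest profile over the 6 mice were sought among 12128 other genes with a mean of at least 1 CPM, by the Euclidean distance between log2 CPM values centred on each gene's mean. The nearest to Rdh16 were Ang4, a Paneth cell ribonuclease (log2 fold change -5.33), and Clps, colipase (-5.21). The nearest to Rdh7 were Sphk1 (-2.90) and Cd59a (-2.64), and Gm12216 (-2.54) was among those nearest to Lrat. Adh1 was most like 4833418N02Rik (-1.42) and Car13 (-1.51), a carbonic anhydrase. Lamc1, a laminin chain of the basement membrane, was the closest to Bco1 (distance 0.169, log2 fold change 3.40) and the second closest to Rbp4 (0.424), after Syngr1 (3.71). Fgfr4 (3.49), the FGF receptor known from bile acid control, came second for Bco1. The nearest to Crabp1 were Gm14226 (10.66) and Gucy2d (10.11), whose fitted changes, like that of Crabp1, rest on control counts close to 0. Profiles over 6 mice in 2 groups are set mainly by the group difference.

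Within 250 kb of Lrat, 3 genes were tested, and the fibrinogen chain genes Fga (10.53) and Fgg (9.02), at 122103 and 103751 bases from the decreased Lrat, were increased. Around Crabp1, 3 of 9 tested genes were decreased, namely Sh2d7 (-4.59), Cib2 (-2.42) and Hykk (-2.34), and 1 was increased, Dnaja4 (1.71). Around Bco1, 2 of 7 were increased and 0 decreased, and around Rbp4 0 of 4 were increased and 1 decreased. For Adh1, 2 of 9 were increased and 0 decreased, for Rbp2 1 of 7 was increased and 1 decreased. For Aldh1a1, 0 of 2 were increased and 0 decreased. Over all genes tested, 12.4% were increased and 12.7% decreased, and these windows of few genes were not tested against those shares.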
